A study of Mus musculus with 14 samples.

Results

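The genes described here encode histone lysine methyltransferases, the enzymes that place methyl groups on lysines of the histone tails, together with close relatives that carry the same catalytic SET fold or, in Dot1l, a different one. They were chosen by name, as 35 gene symbols that include Setd5, and all 35 were present among the 16124 genes of the deposited table. All 35 were therefore kept by the filter on low counts, which required 10 fragments in 7 libraries. The choice was made because Setd5 was already known to differ in these libraries, so the question asked here was whether its relatives moved with it.

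The RNA came from mammary epithelial cells (MECs) of nulliparous females aged 3.5 months. Each of the 7 WT mice had a littermate among the 7 Usp22 OE/OE mice, which were homozygous for a Usp22 cDNA inserted at the ROSA26 locus. The cDNA was driven by the CAGGS promoter, and a STOP cassette in front of it had been removed by Zp3-Cre, active in the oocyte, so that all tissues expressed it from the embryo on. The cells were taken as organoids after digestion and brief centrifugation and were not sorted. Each mouse gave 1 library, and the littermate pairs were numbered 1, 3, 4, 5, 6, 7 and 8. The values are fragments counted per gene divided by a size factor of the library, called normalized counts, and rest on 20125106 to 41835978 counted fragments a library, the fewest in the WT libraries of pairs 1 and 8. Usp22 checked the genotype of every library, being 25.1-fold higher in OE/OE mice with no overlap. The mean log2(normalized count + 1) of 10 pan-epithelial markers averaged 14.3 in WT and 14.4 in OE/OE libraries, above that of adipocyte markers (7.79 and 7.09) and of fibroblast markers (12.6 and 12.3), so the label of epithelial cells held, with markers of stromal cells also present.

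Methylation of histone H3 at lysine 4 marks promoters and enhancers, methylation at lysine 36 and lysine 79 marks transcribed gene bodies, and methylation at lysine 9 and lysine 27 marks silent chromatin. Methylation of histone H4 at lysine 20 is tied to chromosome compaction and to replication. Setd5 and Kmt2e stand apart from the other members. Both are large chromatin proteins whose SET domain resembles that of yeast Set3, a subunit of a deacetylase complex, and whether either protein methylates histones in cells has been disputed. Setd5 has been linked to the NCoR-HDAC3 and PAF1 complexes and is a gene of intellectual disability in people. USP22 itself is the deubiquitinase of the SAGA coactivator, which removes ubiquitin from histones H2A and H2B.

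The stretch in which Setd5 and Kmt2e were most alike is shown because it is the evidence for treating them as paralogs, and because genes with near-identical stretches could share reads. In the GENCODE M21 coding sequences, the best ungapped match of Setd5 with Kmt2e ran over 400 bases with 70.8% identity. The longest such match with any of the other 33 members ran over 80 bases. The 150 bases with the most matches code for part of the SET domain. In Setd5 they are coding bases 988 to 1137 of ENSMUST00000113157.7, on the plus strand of chromosome 6 (GRCm38), from position 113115648 in exon 8 of 22 to position 113116782 in exon 10. In Kmt2e they are coding bases 1102 to 1251 of ENSMUST00000094962.8, on the plus strand of chromosome 5, from position 23478955 in exon 10 of 26 to position 23482404 in exon 12. Capitals mark the 118 bases that are identical in both.
Setd5: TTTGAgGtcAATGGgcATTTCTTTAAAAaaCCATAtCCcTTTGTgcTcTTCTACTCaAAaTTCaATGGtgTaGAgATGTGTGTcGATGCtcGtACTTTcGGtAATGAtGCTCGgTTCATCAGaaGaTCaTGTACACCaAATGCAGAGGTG
Kmt2e: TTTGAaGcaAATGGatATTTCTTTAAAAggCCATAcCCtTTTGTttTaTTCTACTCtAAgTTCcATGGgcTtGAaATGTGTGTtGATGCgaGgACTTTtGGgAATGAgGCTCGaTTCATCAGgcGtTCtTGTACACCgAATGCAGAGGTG
The exon borders fell at the same places of the alignment in both genes, with 29, 118 and 3 bases in the successive exons. The longest identical run between the coding sequences was 15 bases, far below the read length of 75 bases, and no member shared a run of 75 bases with any coding transcript of Setd5. A whole read from a coding transcript of Setd5 could thus not match a coding transcript of Kmt2e base for base. Noncoding transcripts and reads aligned with mismatches were not examined.

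Setd5 rose in OE/OE mice, its paralog Kmt2e did not pass the test, and the rest of the family stayed close to the median of all genes. In the WT mice of pairs 1, 3, 4, 5, 6, 7 and 8, in that order, Setd5 had 4552, 3915, 3383, 7485, 5205, 6788 and 5532 normalized counts. Their OE/OE littermates had 14086, 13049, 10439.9, 33075, 17495, 24516 and 22629 normalized counts. The lowest OE/OE mouse, of pair 4, lay above the highest WT mouse, of pair 5, and Setd5 was the 1 member of the 35 whose groups did not overlap (2.86%, beside 0.0434% of all genes). The change was 3.54-fold (95% interval 3.11 to 4.03), with a Benjamini-Hochberg adjusted p of 1.70e-05 over all genes in limma, whose model held each pair as a block. In a paired test of untransformed counts, the kind of test the study used, Setd5 passed the unadjusted threshold, but its adjusted p was 1.00. In that test 0 of the 16124 genes passed after adjustment, Usp22 included. In limma, 0.0124% of all genes, namely the 2 genes Setd5 and Usp22, passed an adjusted p of 0.05. Since the set was assembled around this change, it is the starting point of the comparison and not an independent finding. Setd5 also begins 32 bp from Gt(ROSA)26Sor, the annotated gene at the locus of the transgene. For Setd5, that neighbourhood and the level of Usp22 therefore cannot be told apart.

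In the same order of pairs, Kmt2e had 3922, 4074, 3176, 6276, 5653, 7997 and 5979 normalized counts in WT mice, against 4988, 3882, 1931, 9857, 6840.1, 7425 and 7008 in their OE/OE littermates. The groups overlapped over nearly their whole range, and the lowest of all 14 values came from the OE/OE mouse of pair 4. Within pairs the log2 ratio of Kmt2e was 0.35, -0.07, -0.72, 0.65, 0.27, -0.11 and 0.23, above 0 in 4 of 7 pairs. The mean log2 change was 0.09 (95% interval -0.23 to 0.41, limma adjusted p = 1.00), so a change of Kmt2e as large as that of Setd5 lay far outside its interval. A total of 9.31% of the Kmt2e exon bases also lie in exons of Srpk2 on the opposite strand, and whether the counting used strand was not given in the sources used here.

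Set beside its relatives within each pair, Setd5 was the member with the largest log2 ratio in all 7 pairs. The log2 ratio of Setd5 was 1.63, 1.74, 1.63, 2.14, 1.75, 1.85 and 2.03 in pairs 1, 3, 4, 5, 6, 7 and 8. It exceeded that of Kmt2e by 1.74 ± 0.36 on the log2 scale (SD over 7 pairs, from 1.28 to 2.34), and the median of the other 34 members by 1.75 ± 0.17 (from 1.44 to 1.92). Both differences were above 0 in 7 of 7 pairs. The p in the exact two-sided sign-flip test was 0.0156 for each, the smallest that 7 pairs can give. Setd5 was chosen for its known rise in these same pairs, so these tests describe its lead and are not independent support for it. The next highest member differed from pair to pair. It was Setmar in pairs 1 (1.14) and 7 (0.76), Setd4 in pair 3 (0.81), Nsd2 in pair 4 (1.03), Kmt2d in pair 5 (0.98), Setd1b in pair 6 (0.32) and Kmt5c in pair 8 (0.56).

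**Figure D1:**
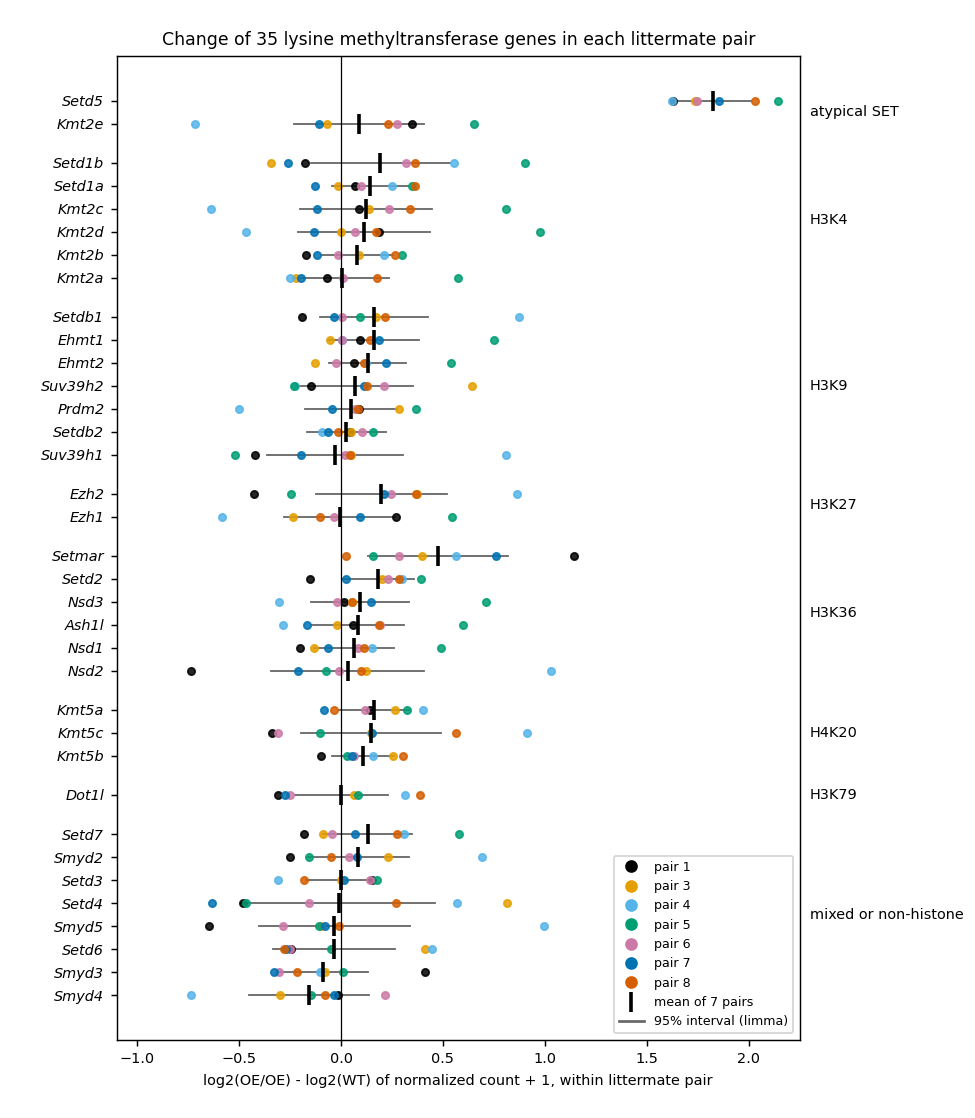
Difference of log2(normalized count + 1) between the OE/OE and the WT littermate (x axis) for each of the 35 genes (y axis), grouped by the residue the enzyme is known for. Points are the 7 pairs, black bars their mean and grey lines the 95% interval from limma; the 7 points of Setd5 lie between 1.63 and 2.14, and the means of the other 34 genes lie between -0.16 and 0.48.

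Among the other 34 members the mean log2 change ran from -0.16 for Smyd4 to 0.48 for Setmar, with a median of 0.08 beside -0.0015 for all genes. It was above 0 for 26 members and below 0 for 8. For 33 of the 34 it lay within 0.25 of 0 on the log2 scale. The 95% interval lay within 0.5 of 0 for 31 members and within 1 of 0 for all 34, so changes of the size seen for Setd5 were outside every one of these intervals. At the threshold of an unadjusted p of 0.05 or less, 3 of 35 members were called higher (8.57%, beside 1.95% of all genes) and 0 of 35 lower (beside 1.85% of all genes). The called members were Setd5, Setd2 and Setmar, and after adjustment over all genes only Setd5 remained, the adjusted p of the other 34 being 1.00. Setd5 and Setmar changed in the same direction in all 7 pairs, which is 5.71% of the members, beside 1.51% of all genes. The shares of 8.57% and 5.71% count Setd5, which was in the set because of its known rise. Apart from it, only Setd2 and Setmar were called, and only Setmar kept its direction in all 7 pairs.

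Setmar, a SET domain protein linked to H3K36 methylation, was the member with the second largest change. In pairs 1, 3, 4, 5, 6, 7 and 8 it had 76.7, 125, 133, 107, 159, 88.5 and 154 normalized counts in WT mice, against 171, 165, 197, 119.7, 193, 151 and 156 in OE/OE mice. The groups overlapped, while the OE/OE mouse was the higher in 7 of 7 pairs, by between 0.02 in pair 8 and 1.14 in pair 1 on the log2 scale. The mean change was 1.39-fold (95% interval 1.10 to 1.77), with an unadjusted p of 0.0117 in limma, an adjusted p of 1.00 and an exact sign-flip p of 0.0156. Setmar lies on chromosome 6, at 108065045 to 108077122, 4.99 Mb from Gt(ROSA)26Sor, the locus of the transgene, and its unadjusted call was lost with the pan-epithelial marker score as a covariate (log2 change 0.31). Setmar and Setd5 were the only members within 10 Mb of that locus, and Setd5 begins only 32 bp from the annotated gene. The other 2 members on chromosome 6, Smyd5 and Ezh2, lie 27.6 Mb and 65.5 Mb away and had log2 changes of -0.03 and 0.20. Mice homozygous for the inserted allele are also homozygous for the chromosome around it, so for genes near the locus its neighbourhood and the level of Usp22 cannot be told apart.

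Setd2, the enzyme that trimethylates H3K36 behind elongating RNA polymerase II, was called with a much smaller change. In the same order of pairs it had 5065, 4308, 3562, 7083, 4505, 6594 and 5081 normalized counts in WT mice, against 4557, 4945, 4386, 9285, 5280.4, 6714 and 6181 in their OE/OE littermates. The OE/OE mouse was the higher in 6 of 7 pairs, pair 1 being the exception, and the groups overlapped. The log2 change was 0.18 (95% interval 0.01 to 0.36, limma unadjusted p = 0.0434, adjusted p = 1.00). That call was lost without a block and with any one of pairs 3, 4, 5, 6 and 8 left out. The other H3K36 enzymes did not pass the test. Nsd1 had a log2 change of 0.06, Nsd2 of 0.03, Nsd3 of 0.09 and Ash1l of 0.08, so that 2 of 6 members of this group were called higher (beside 1.95% of all genes), both with an adjusted p of 1.00, and the group median was 0.09.

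**Figure D2:**
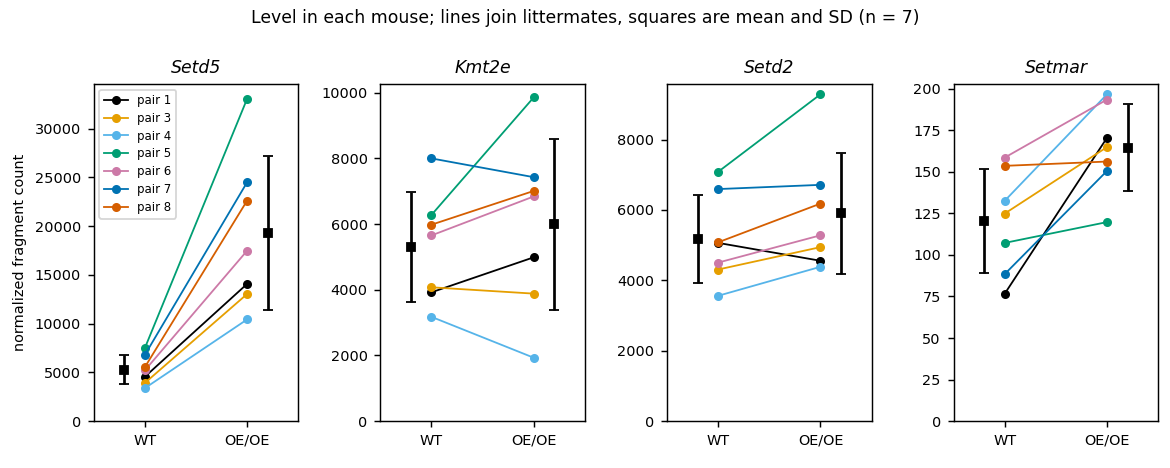
Normalized fragment count (y axis, from 0) of Setd5, Kmt2e, Setd2 and Setmar in WT and OE/OE mice, with lines joining littermates and squares giving the mean and SD of 7 mice. All Setd5 lines rise and the groups are apart, while the WT and OE/OE values of the other 3 genes overlap.

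None of the 6 H3K4 enzymes was called. These are the Trithorax homologs Kmt2a and Kmt2b, the enhancer enzymes Kmt2c and Kmt2d, and the broadly acting Setd1a and Setd1b. Their log2 changes ran from 0.00 for Kmt2a to 0.19 for Setd1b, with a median of 0.12. Kmt2d, the most abundant by raw count, had 4178 to 14855 normalized counts among WT mice (median 8014), against 3020.2 to 23149 in OE/OE mice (median 8413), so that each group spanned more than the difference between their means. Setd1a shares 51.8% of its exon bases with Gm49388, an overlapping gene on the same strand that is not in the table, so its value of 795 ± 223 in WT and 880.1 ± 262 in OE/OE mice (SD, n = 7) may not hold all of its fragments.

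The 7 H3K9 enzymes, which act in heterochromatin and gene silencing, had a median log2 change of 0.07 and none was called. The change was 0.16 for Ehmt1 (GLP) and 0.13 for Ehmt2 (G9a), which work as a heterodimer, with 6 and 5 of 7 pairs higher. Setdb1, which silences retroelements, had a change of 0.16, and Setdb2 one of 0.03. Prdm2 had a change of 0.05. The pericentric enzymes Suv39h1 and Suv39h2 had changes of -0.03 (95% interval -0.36 to 0.30) and 0.07 (-0.21 to 0.35).

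Ezh1 and Ezh2, the alternative catalytic subunits of Polycomb repressive complex PRC2, which places H3K27 methylation, were not called either. For Ezh2 the WT values were 918, 697, 733, 1096, 794, 654 and 634 normalized counts, and the OE/OE values 683, 903, 1334, 923, 943, 756 and 819, in pairs 1, 3, 4, 5, 6, 7 and 8. It was higher in 5 of 7 OE/OE mice and lower in those of pairs 1 and 5, with a log2 change of 0.20 (95% interval -0.12 to 0.52). Ezh1, the form of resting cells, had a log2 change of -0.01. The value of Ezh2 depended on single pairs, being 0.30 without pair 1 (past the unadjusted threshold) and 0.09 without pair 4, and it was -0.20 with the adipocyte score as a covariate.

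The H4K20 enzymes had log2 changes of 0.16 for Kmt5a, 0.11 for Kmt5b and 0.15 for Kmt5c. Kmt5a (PR-Set7), the monomethylase whose protein is tied to the cell cycle, was the steadiest member among WT mice. Its WT values were 2745, 2738, 2774, 2696, 2657, 2756 and 3114 normalized counts, a coefficient of variation of 5.44%, against 3025, 3293, 3668, 3371, 2878, 2599 and 3037 in OE/OE mice. It was higher in all but pairs 7 and 8. Among members that were not called it had the smallest limma p, 0.0629 unadjusted (exact sign-flip p = 0.0781). Median centring brought it to a p of 0.0414. Dot1l, the H3K79 enzyme without a SET domain, had a log2 change of 0.00 (95% interval -0.23 to 0.23).

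The 8 members with mixed or non-histone substrates had a median log2 change of -0.02 and none was called. Setd3, the actin histidine methyltransferase, had 3037 ± 300.4 normalized counts among WT mice, against 3024 ± 159 in OE/OE mice, with a 95% interval of -0.17 to 0.17 for the log2 change. Setd7 had a log2 change of 0.13 and Smyd2 of 0.08. Setd4 (-0.01), Setd6 (-0.03), Smyd5 (-0.03), Smyd3 (-0.09) and Smyd4 (-0.16) made up the rest of the group. Setd4 was the scarcest member, with 62.4 ± 26.8 normalized counts in WT, and its interval of -0.49 to 0.46 was the widest of the family.

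The place of Setd5 in the family changed with its level. Divided by exon length, Setd5 stood at 287 normalized counts per kb in WT, the 16th of 35, and at 1053 per kb in OE/OE mice, the 1st. Its share of the summed level per kb of the family went from 2.90% to 9.09%. Kmt2e stood at 507 per kb in WT and 574 per kb in OE/OE mice. In WT mice the highest levels per kb were those of Ehmt2 (903), Prdm2 (730) and Dot1l (624), and the lowest that of Setd4 (11.6). The median member had 254 normalized counts per kb, beside 130 for all genes, and 22 of 35 members lay above that median of all genes. Exon length was the union of all annotated exons, so the level of a gene whose transcripts use few of them is understated.

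**Figure D3:**
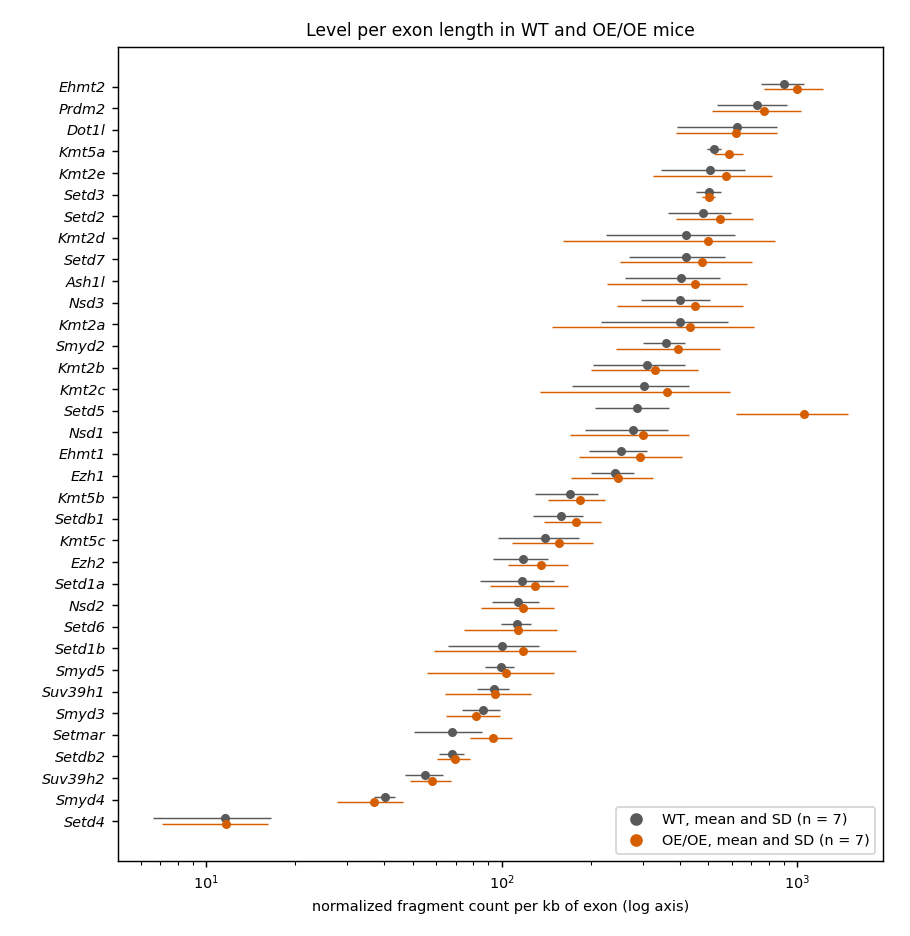
Normalized fragment count per kb of exon (x axis, log scale) of each member in WT and OE/OE mice, ordered by the WT level; points are means and lines the SD of 7 mice. Setd5 moves from 287 to 1053 per kb, past every other member, while the other pairs of points lie close together.

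Among the transgenic mice the level of Setd5 was not found to follow that of Usp22. In OE/OE mice of pairs 1, 3, 4, 5, 6, 7 and 8, Usp22 had 144288, 119395, 74948, 114752, 102939, 107962 and 88829 normalized counts. The mouse with the most Usp22, of pair 1, was the third lowest in Setd5, whereas the mouse of pair 4 was lowest in both. Over the 7 OE/OE mice, Pearson's r was 0.17 (exact permutation p = 0.712) and Spearman's rho 0.11 (exact permutation p = 0.840). Without the 2 mice farthest from the Usp22 median, r was -0.16. Over the 7 WT mice, in which Usp22 ran from 3500.0 to 5379.7 normalized counts, r was 0.71 (exact permutation p = 0.0794, adjusted over both groups 0.159) and rho 0.71 (exact permutation p = 0.0881), and r was 0.43 without the 2 farthest mice. With 7 mice such tests detect only strong relations.

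The level of Setd5 in OE/OE mice followed that in their WT littermates, a relation examined after the data were seen. The 7 OE/OE mice stood in exactly the order of their WT littermates, with pair 4 lowest, then pairs 3, 1, 6, 8 and 7, and pair 5 highest. Pearson's r of the log2 levels was 0.98 (exact permutation p = 3.97e-04, adjusted over the 35 members 0.00694), rho was 1.00, and r was 0.95 without the 2 farthest pairs. Kmt2e gave an r of 0.87 (adjusted exact permutation p = 0.0183), and 0.78 without the 2 farthest pairs. Such agreement was common in the family, since 18 of 35 members had an adjusted p under 0.05, of which 16 kept an r above 0.5 without the 2 farthest pairs. Setdb2 (-0.41) and Dot1l (0.33) did not. The median r was 0.82 over members and 0.60 over all genes, and members with r above 0.8 were 18 of 35, beside 26.9% of all genes.

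These litter levels moved with exon length. Of the 13 members with 10 kb of exon or more, all 13 were highest in WT in pair 5 or 7 and all 13 were lowest in WT in pair 4. Among OE/OE mice, 12 of the 13 were highest in pair 5 and 10 were lowest in pair 4. Of all 35 members, 25 were highest in WT in pair 5 or 7 and 18 lowest in WT in pair 4. Among OE/OE mice, 19 of the 35 were highest in pair 5 and 15 lowest in pair 4. The median coefficient of variation of the 13 long members over WT mice was 31.5%, beside 16.6% for the other members. The same tilt was present across the table: the median deviation of 1342 genes with exons of 10000 bp or more minus that of 1715 genes under 2000 bp, on the log2 scale, was -0.84 in WT and -1.18 in OE/OE in pair 4, against 0.85 and 1.44 in pair 5 and 0.77 and 0.71 in pair 7. In the other pairs it lay between -0.51 and 0.57. The tilt did not separate the groups, the difference within pairs being 0.08 ± 0.33 (exact sign-flip p = 0.531), and its origin was not tested.

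The 2 pairs in which the OE/OE library was tilted most towards long genes relative to its littermate, pair 5 (by 0.59) and pair 8 (by 0.47), were those with the largest ratios of Setd5, 2.14 and 2.03. In pair 5, 11 of the other 12 long members were higher in the OE/OE mouse, with a median log2 ratio of 0.59. In pair 8 all 12 were, with a median of 0.21. Of the 22 shorter members, 13 were higher in each of these pairs, with medians of 0.09 and 0.06. The tilt was itself measured on genes as long as these 12, so their rise in pairs 5 and 8 is not separate evidence. Of the 12 long members, 6 were higher in pair 4, where the tilt differed by -0.34, 4 in pair 7 (-0.06) and 9 in pair 6 (-0.01). In pair 3 (0.02) and in pair 1 (-0.10), 5 of 12 were higher. The tilt sets long against short genes, so both medians are given for pairs 1, 3, 4, 6 and 7. They were -0.08, -0.01, -0.05, 0.08 and -0.11 for the 12 long members. For the 22 shorter members they were -0.08, 0.07, 0.28, 0.01 and -0.04. With the tilt of each library as a covariate beside the block, the log2 change was 1.78 for Setd5, 0.01 for Kmt2e, 0.54 for Setmar and 0.16 for Setd2, and the unadjusted call of Setd2 was lost (limma unadjusted p = 0.0609).

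**Figure D4:**
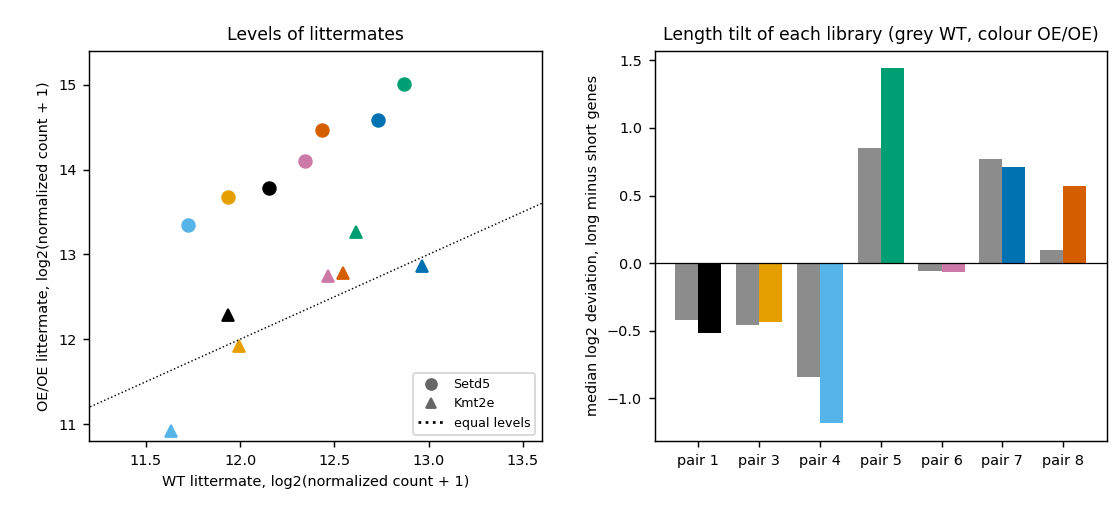
Left, log2(normalized count + 1) of Setd5 (circles) and Kmt2e (triangles) in the OE/OE mouse against its WT littermate, coloured by pair as on the right; the Setd5 points rise in step and lie 1.63 to 2.14 above the line of equal levels. Right, length tilt of each library, the median log2 deviation of long genes minus that of short genes, with grey bars for WT and coloured bars for OE/OE mice; pair 4 is lowest and pair 5 highest.

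Several members are tied to replication or the cell cycle, and the expression of proliferation genes differed widely between these preparations. A score over 22 proliferation genes, their mean log2(normalized count + 1), ran from 5.48 to 9.23 in WT and reached 10.2 in OE/OE mice. The difference within pairs was 0.07 ± 2.19 (higher in 3 of 7 pairs, exact sign-flip p = 0.938), with pair 4 alone at 4.69 and the others between -1.96 and 0.31. In pair 4 the log2 ratio was 1.03 for Nsd2, 0.86 for Ezh2, 0.81 for Suv39h1 and 0.40 for Kmt5a, and -0.23 for Suv39h2. Over the libraries without pair 4, Pearson's r with the proliferation score was 0.38 for Suv39h1 and 0.22 for Ezh2. It was 0.02 for Suv39h2, -0.19 for Nsd2 and -0.50 for Kmt5a. Members outside these 5 were also high in pair 4, with log2 ratios of 0.91 for Kmt5c, 0.87 for Setdb1 and 0.69 for Smyd2. Over all 14 libraries, Pearson's r with the proliferation score was 0.20 for Kmt5c, 0.01 for Setdb1 and 0.49 for Smyd2. Without pair 4 it was -0.20, -0.63 and 0.38 for these 3 genes. Over all 14 libraries it was 0.59 for Suv39h1, 0.53 for Ezh2, 0.32 for Nsd2, 0.10 for Kmt5a and -0.10 for Suv39h2. In all, 10 of the 34 members other than Setd5 had a ratio above 0.5 there. Smyd5 had a ratio of 1.00 in pair 4 and was lower in the OE/OE mouse in the other 6.

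Nsd2, an H3K36 dimethylase, had 2005, 1794, 1431, 2540.4, 1789.7, 2014 and 1726 normalized counts in WT mice, against 1203, 1951, 2927, 2413, 1779, 1739.6 and 1849 in OE/OE mice of pairs 1, 3, 4, 5, 6, 7 and 8. Suv39h1 had 596, 527, 482, 528, 463, 481 and 397 in WT and 445, 546, 847, 368, 468, 419.9 and 410.0 in OE/OE mice. In both genes the highest of all 14 values came from pair 4, in its OE/OE mouse. Suv39h2 had 233, 198, 293, 265, 249, 198 and 265 in WT and 211, 310.0, 250.3, 225, 288, 214 and 289.7 in OE/OE mice, with the groups overlapping throughout and pair 4 not standing out. With the proliferation score as a covariate, Setd5, Setd2 and Setmar were called, as without it.

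**Figure D5:**
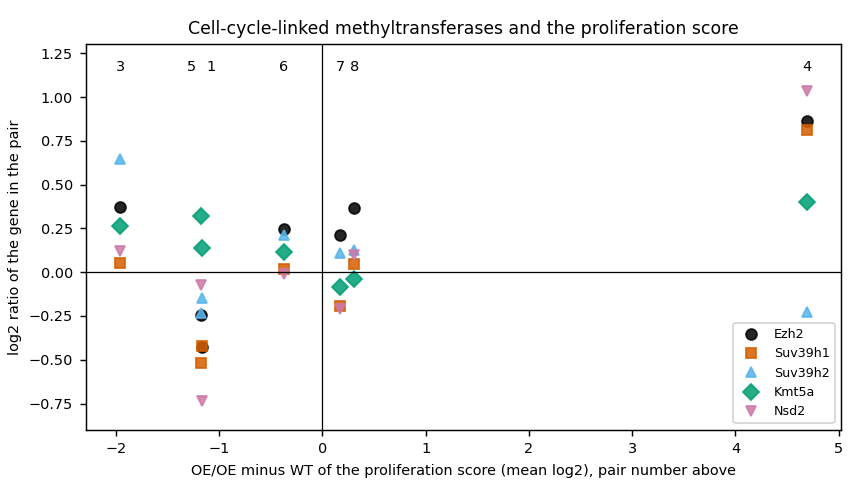
Log2 ratio of 5 methyltransferase genes tied to replication or the cell cycle (y axis) against the difference of the proliferation score (mean log2) between littermates (x axis); each column of points is 1 pair, numbered above. Pair 4, at 4.69, holds the highest ratios of Nsd2, Ezh2, Suv39h1 and Kmt5a, but not of Suv39h2.

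The partners and opponents of these enzymes were taken from lists, and their calls at the unadjusted threshold are to be read beside 1.95% of all genes called higher and 1.85% called lower. Of the 14 subunits of the KMT2 and SET1 complexes in the table, 0 were called (median log2 change 0.06), and the genes with the smallest p, Wdr82 and Ncoa6, had log2 changes of 0.11 and 0.12. Of 10 PRC2 subunits, 2 were called higher, Epop (log2 change 0.33, higher in 7 of 7 pairs), which tempers PRC2 at active genes, and Jarid2 (0.21), which recruits PRC2. Of 11 subunits of the NCoR-HDAC3 and PAF1 complexes, 0 were called, with Ctr9 at -0.14 and Leo1 at 0.13. Of 21 lysine demethylases, 2 were called higher, the H3K9 demethylase Kdm3a (0.17) and the H3K4 demethylase Kdm5b (0.29). Of 22 proliferation genes, 1 was called lower, the mitotic kinase Aurka (-0.39), and Pcna, with the next smallest p, had a log2 change of 0.12. All of these named genes had an adjusted limma p of 1.00.

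Scores of cell markers are given beside the members, and none differed between the groups after adjustment over the 9 lists. The adipocyte score ran from 6.74 to 8.43 in WT and from 6.23 to 7.90 in OE/OE mice, a difference of -0.70 within pairs (exact sign-flip p = 0.0469, adjusted over 9 lists 0.281), and 5 of 10 adipocyte markers were called lower (beside 1.85% of all genes). The fibroblast score differed by -0.39 (exact sign-flip p = 0.109), with 3 of 10 markers called lower, and the pan-epithelial score by 0.12 (exact sign-flip p = 0.0625), with 1 of 10 called higher (beside 1.95% of all genes). The other 5 marker lists, luminal, basal, endothelial, macrophage and lymphocyte, held 0 calls and had exact sign-flip p values from 0.406 to 0.953. No marker in the table was at 0 in any library. With the proliferation, adipocyte or pan-epithelial score as a covariate, as under every other setting tried, the log2 change of Setd5 stayed between 1.77 and 1.88. The adipocyte score as a covariate gave Kmt2e a log2 change of 0.39, past the unadjusted threshold. The part of cell makeup in the small differences of the other members was not tested beyond that. In RNA from whole preparations, fewer cells of a type and less RNA per cell cannot be told apart.

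The genes on the other side of Setd5 went the other way. Gt(ROSA)26Sor, the noncoding gene at the insertion site, had 172 to 329 normalized counts among WT mice (median 226), against 56.6 to 213 in OE/OE mice (median 172), a log2 change of -0.74 with 6 of 7 pairs lower. Pair 4 alone had a log2 ratio of -2.52, and the mean of the other 6 pairs was -0.44. Thumpd3, which overlaps it, was below WT in 7 of 7 pairs, with a mean log2 change of -0.21 and a ratio of -0.0039 in pair 4. Both neighbours had an adjusted limma p of 1.00.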

How the data were processed

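RNA of 14 mice was sequenced as paired reads of 75 bases. The authors mapped them to mm10 with TopHat2 2.0.10, counted fragments on GENCODE M21 genes with HTSeq 0.6.0, kept genes with 10 fragments or more in 7 libraries and divided the counts by DESeq 1.18.0 size factors. What was deposited is thus a signal on a linear scale, 1 normalized count per gene and mouse, with no samples pooled. The submitters' processing notes and the methods name no correction for gene length or RNA quality. Divided by the step that 1 fragment makes, 100.0% of the values of every library came out whole (within 0.02), which gave the fragments behind them.

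Positions, exon lengths and coding sequences were taken from GENCODE M21 (GRCm38), to which all 16124 identifiers matched. Changes were tested with limma 3.58.1 (R 4.3.3) on log2(normalized count + 1) over all genes, with the pair as a block. It takes the place of a per-gene paired test of untransformed counts, which was kept as an alternative. Fold changes on this scale are understated where counts are few. Single values were tested by exact two-sided sign flips of the 7 pairs (128 patterns) and correlations by all 5040 pairings. The pairing comes from the labels and methods, which match littermates. Deviations of littermates correlated across genes with r from 0.17 to 0.75. edgeR 4.0.16 and DESeq2 1.42.0 were run on the recovered fragments as alternatives, and the tests were checked on counts of known change. Other alternatives were the pseudocount (0.1 and 10), a minimum mean of 50, no trend, no block, median centring, quantile normalization, 3 scores entered as covariates, and the loss of each pair. A covariate of length tilt and the loss of pairs 1 and 8 were added after the data were seen, as were the relation between littermates and the counts by position on chromosome 6.

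The members, gene lists and marker lists were chosen with earlier results of these data known. By rule, all members are named, with values in each mouse for Setd5, Kmt2e, Usp22, members called without adjustment and 5 genes tied to replication or the cell cycle, and of each partner list the 2 genes of smallest p. Gt(ROSA)26Sor and Thumpd3 were named as neighbours. Proteins were not analysed here.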

Additional observations from a re-analysis of the deposited data

Results flagged for a closer look

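In 5 of 70 groups of 7 mice, 1 mouse stood apart from the rest on the log2(normalized count + 1) scale by more than Dixon's 95% criterion for 7 values, where chance alone gives about 1 in 20, or 3.5 groups. Ehmt2 was highest in the WT mouse of pair 7, at 12.7, with the next at 12.3 (6667 against 5115 normalized counts). Kmt5a was highest in the WT mouse of pair 8, a shallow library, at 11.6, with the next at 11.4 (3114 against 2774 normalized counts). Setd6 was highest in the WT mouse of pair 4, at 8.07, with the next at 7.75. Smyd5 was set apart in both groups, by the WT mouse of pair 6, the lowest at 8.81 with the next at 9.12, and by the OE/OE mouse of pair 4, the highest at 10.2 with the next at 9.16 (1205 against 570.0 normalized counts). That last mouse also had the highest proliferation score of the 14. Leaving out the pair concerned changed no call of Ehmt2, Setd6 or Smyd5, whereas Kmt5a was called at an unadjusted limma p of 0.0389 without pair 7 and 0.0471 without pair 8.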

How the results depend on the processing

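The log2 change of Setd5 lay between 1.77 and 1.88 over 22 alternatives (1.77 to 1.86 with a pair left out), and its excess over Kmt2e and over the median of the other members lay between 1.64 and 1.81 and between 1.72 and 1.80 with a pair left out. Of 748 values of members, 726 kept their direction and side of the threshold or moved within the pair SD. The number of members called higher was 2 to 4 with a pair left out and 1 with the pan-epithelial score, that called lower was 0 with any pair left out but 3 with the adipocyte score, under which 3073 genes of the table were called, and that called after adjustment was 1 with any pair left out but 0 in the paired test of untransformed counts, where Setd5 was lost. In that paired test 0 of the 16124 genes passed after adjustment. With the adipocyte score Ezh1 turned to 0.28 and Nsd2 to -0.49. Without the replicate block, Setd5 kept 1.82 (limma adjusted p = 0.0170) and 2 members were called, Setd2 being lost. In the other fits that lost Setd2 its log2 change was between 0.05 and 0.22. The correlation of Setd5 and Usp22 in OE/OE mice ranged from -0.45 to 0.48 with a mouse left out, -0.45 without that of pair 4, and turned to -0.16 without the 2 farthest from the median. The causes were not tested. Depth limits Setd4 most, the member with the fewest counts.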

Other observations

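The unadjusted calls of Setd5 and Setmar stood among others near the transgene, a count made after the data were seen. Of 78 genes of the table within 5 Mb of Gt(ROSA)26Sor on chromosome 6, 14.1% had an unadjusted limma p of 0.05 or less, 6 higher and 5 lower in OE/OE mice. Within 10 Mb the share was 12.2% of 131 genes, 8 higher and 8 lower, and within 20 Mb it was 8.33% of 252 genes. Over the rest of chromosome 6 it was 3.93% of 585 genes, and over the other chromosomes 3.73% of 15287 genes. The median log2 change within 10 Mb was 0.0011, so the genes there moved in both directions. Neighbouring genes are not independent of each other, no test was made of these shares, and their cause was not tested.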
